A study of Mus musculus with 6 samples.

Results

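The 49 genes described here are interferon-stimulated genes, which cells switch on when they sense interferon or viral nucleic acid. They were chosen as the rows of the deposited expression table whose gene name is on a list of 49 names. All 49 were found among the 27366 features of the table. RNA came from satellite cells of mouse skeletal muscle, the stem cells that repair it, at day 4 of culture in a growth medium that held 20% fetal bovine serum and basic FGF. There were 3 libraries labelled Islr knockout and 3 labelled control, numbered 1 to 3 in each group. According to the series' design text, flow cytometry separated cells with Islr from cells without it. The labels give no Islr allele, Cre driver, age or number of animals, and do not say what a replicate number marks. Both groups were grown in the same medium. Whether replicates are separate animals, cultures or preparations is not stated, and a p-value here measures the spread between these 6 libraries, which may be technical. Where replicate numbers are compared, that spread is only how unevenly the difference between the groups varied from number to number. If a number marks a single preparation, such a p-value does not measure the spread between preparations.

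Type I interferons bind the receptor made of Ifnar1 and Ifnar2. The kinases Jak1 and Tyk2 then act on transcription factors, among them Stat2, which with Irf9 forms part of a complex that binds the interferon-stimulated response element. Interferon gamma acts through the receptor chains Ifngr1 and Ifngr2 and on genes with gamma-activated sites. Many of the induced genes encode sensors of viral RNA, antiviral effectors and regulators that shape the same response. In cultured myoblasts, interferon gamma is known to hold back muscle differentiation genes.

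The libraries held 16456917 to 20124943 reads on genes in the Islr knockout group and 16776805 to 20531276 in the control group. Values below are scaled reads, the read counts divided by 1 size factor per library, as the authors deposited them. The targeted gene Islr was read at 256.7, 7.38 and 10.9 scaled reads under the labels Islr knockout 1, 2 and 3, and at 181.1, 12.8 and 1579 under control 1, 2 and 3. Islr in Islr knockout 1 exceeded its level in control 1 and in control 2, which goes against that label, so all groups are named here by their labels. In control 2, Islr was near its level in Islr knockout 2 and 3. Only in number 3 was Islr far lower under the knockout label than under the control label. The satellite cell markers Pax7, Myf5 and Myod1 were present in all 6 libraries, with Pax7 between 1319 and 1667 scaled reads in the Islr knockout group and between 1233 and 2729 in the control group. Myog, a marker of differentiating myocytes, stood at 37228, 1998 and 5737 scaled reads under the Islr knockout labels, and at 43370, 417.2 and 43261 under the control labels.

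The interferon-stimulated genes were high in both libraries of replicate number 3 and low in the other 4 libraries. Together they took 0.0227%, 0.0358% and 0.269% of the reads in the libraries labelled Islr knockout 1, 2 and 3, and 0.0224%, 0.0186% and 0.135% in those labelled control 1, 2 and 3. The 95% exact binomial interval, which covers counting error only, ran from 0.266% to 0.271% in Islr knockout 3 and from 0.133% to 0.136% in control 3. All 49 genes had at least 1 read in both libraries of number 3, and 38 to 43 had one in each of the other 4. On the length-normalized FPKM scale, the median gene stood at 0.270, 0.399 and 9.05 in the libraries labelled Islr knockout and at 0.408, 0.147 and 6.48 in those labelled control. A level of at least 1 FPKM was reached by 13, 19 and 45 of the 49 genes in the libraries labelled Islr knockout and by 15, 12 and 41 in those labelled control. For 48 of the 49 genes, both libraries of number 3 lay above the other 4. This was so for 15.8% of the 20344 features tested, and the exception was Epsti1.

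**Figure D1:**
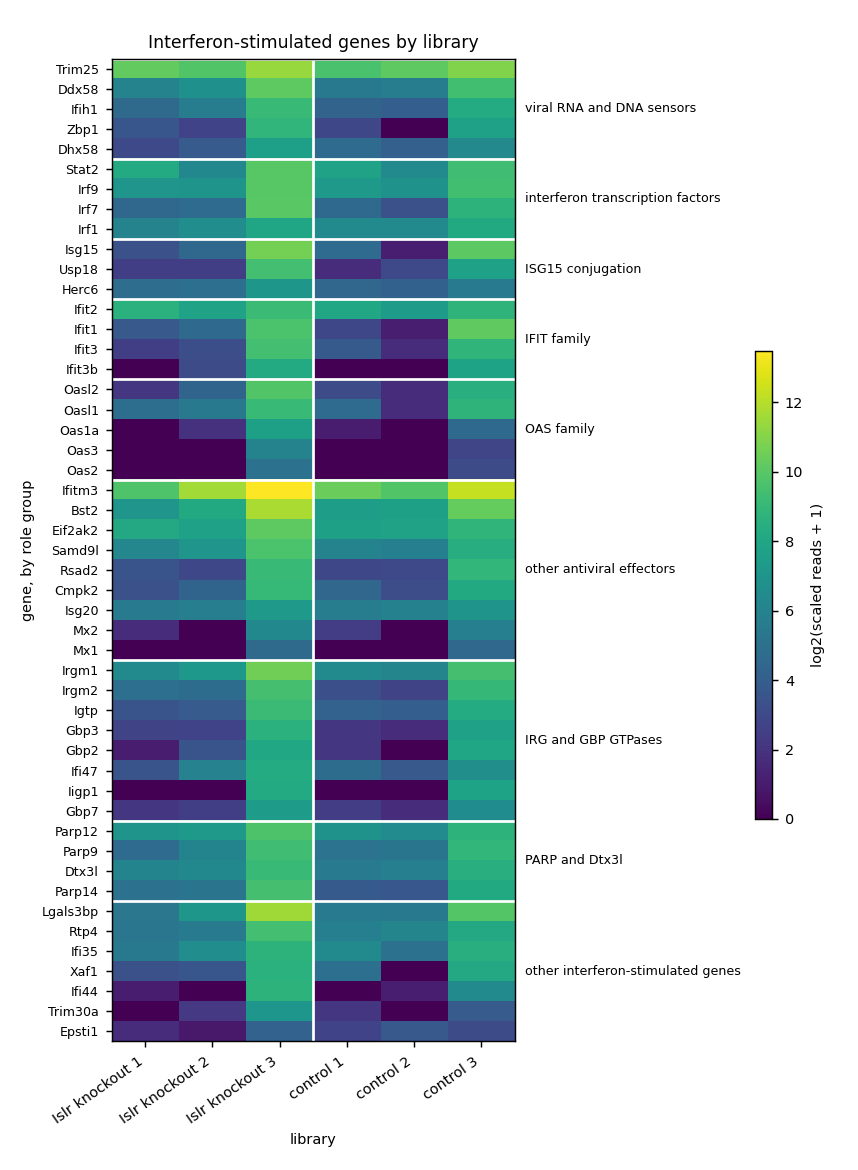
Level of each of the 49 interferon-stimulated genes (rows, by role group) in each library (columns), as log2(scaled reads + 1). The columns of Islr knockout 3 and control 3 are brighter than the other 4 in nearly every row, and Trim25, Ifit2 and Ifitm3 are high in all 6 libraries.

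**Figure D2:**
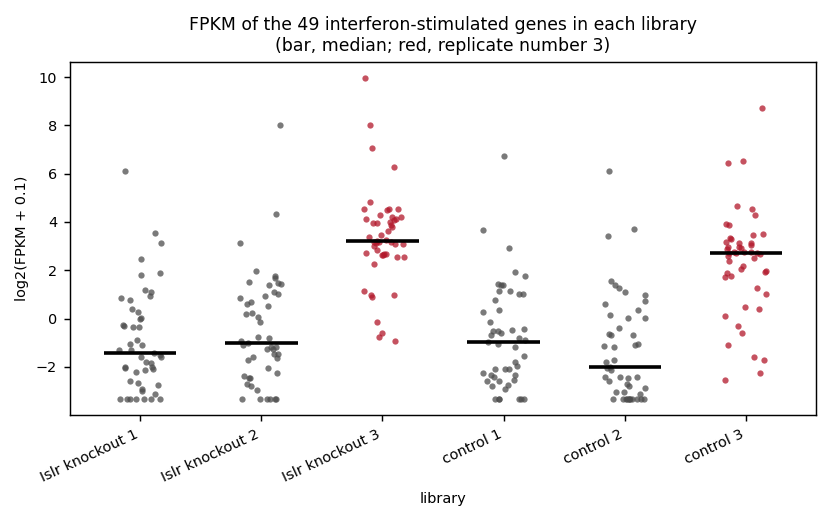
FPKM of the 49 genes in each library, on a log2(FPKM + 0.1) axis; each point is a gene and the bar is the median. The medians of Islr knockout 3 and control 3 are 9.05 and 6.48 FPKM, and the other 4 lie between 0.147 and 0.408.

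The design compares genotypes, and the shared replicate numbers allow libraries of different numbers to be compared with genotype held fixed. These contrasts were fitted with limma on log2(scaled reads + 1) over all 20344 features with a mean of at least 1 scaled read, and a gene was called at a Benjamini-Hochberg adjusted p under 0.05. A fold change on this scale understates the change of low genes. Number 3 was called higher than number 1 for 36 of the 49 genes and lower for none, where 1.97% of all features were higher. All 49 passed the filter on low values, but Ifi44, Iigp1, Mx1, Oas1a, Oas2 and Oas3 averaged under 1 scaled read over the other 4 libraries and passed only through number 3. Without these 6 genes, 32 of the other 43 were called, with a median log2 fold change of 4.10. The median log2 fold change was 4.23 over the 49 genes and -0.03 over all features, and fitted values of single genes ran from 0.64 (Ifit2) to 8.03 (Ifit3b, which had no read in number 1, so that its place among the largest is not established). At an unadjusted p under 0.05, 48 of the 49 were higher and none lower, against 11.7% and 9.88% of all features. Among the 50 features with the highest fold change, 17 were interferon-stimulated genes, and 26 were among the top 100, where the 49 genes are part of 20344 features. These counts include Iigp1 and Ifi44, which passed the filter only through number 3, and Ifit3b, so they are not independent of that filter. Against number 2, number 3 was called higher for 40 of the 49 genes and lower for none (2.72% of all features were called higher). It was called higher for 35 of the 43 genes that did not depend on number 3 to pass the filter. At an unadjusted p under 0.05, 48 of the 49 were higher and none lower, against 14.2% and 9.64% of all features. The median was then 4.41 over the 49 genes and 0.08 over all features. The 13 genes that did not pass against number 1 were Dhx58, Trim25, Herc6, Ifit2, Oas2, Oas3, Isg20, Ifitm3, Eif2ak2, Ifi47, Xaf1, Epsti1 and Trim30a. Of these, Ifit2, Oas2, Eif2ak2 and Xaf1 passed against number 2. Where the genes with no read in the lower pair were set to their bound of 3 reads per library, the medians became 4.10 against number 1 and 3.87 against number 2.

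These counts rest on few libraries. With either library of number 3 left out, none of the 49 passed against number 1, although 40 (without Islr knockout 3) and 48 (without control 3) kept an unadjusted p under 0.05. Without Islr knockout 1 the count was 16. Against number 2, the count was 0 without control 3 or control 2 and 12 without Islr knockout 3. The calls of single genes against number 1 given below therefore hold in the fit of all 6 libraries and in none that leaves out a library of number 3. In these fits 1 number is left with a single library, which is assumed to vary like the others.

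In the 49 genes, the fitted differences between numbers 1 and 2 were far smaller. This was not so over all features, of which 658 were called between numbers 2 and 1 and 588 between numbers 3 and 1. None of the 49 genes was called higher in number 2 than in number 1, where 0.58% of features were. The log2 fold change was above 0 for 24 of the 49, and the median was 0. Many of the genes were near the counting limit here, as 19 in number 1 and 18 in number 2 had fewer than 20 reads in the pair. Iigp1, Oas2, Oas3 and Mx1 had no read in either number and could only be fitted at 0, where the median fell. A difference in such genes could not be seen at this depth. At an unadjusted p under 0.05 none was higher (7.29% of features) and 4 were lower (11%). Only Stat2 was called lower, at -1.61 ± 0.32 (SE) with a limma adjusted p of 0.0322, where 2.65% of features were called lower. The number of members called lower was 0 with any 1 of 5 libraries left out and 2 without Islr knockout 2.

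The promoters show what several of these genes have in common in sequence. RefSeq promoter windows on GRCm38.p6, which reach from 250 bases before to 50 after the start site, were matched for 39 of the 49 genes. The interferon-stimulated response element, searched as GAAA and GAAA with any 2 bases between them on both strands, was found in 20 of these 39 (51.3%), against 3.99% of 27025 genes with a window. The gamma-activated site, searched as TTCNNNGAA on both strands, was found in 11 (28.2%), against 9.55% of all genes with a window. Both motifs were found in 7, and the same letters can serve neighbouring matches. In the 250 bases before the start alone, the counts were 16 (41.0%, against 3.46%) and 9 (23.1%, against 8.13%). A match is a description of the letters, not a site of binding.

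The stretches below are shown because they hold the response element matches of genes whose values follow, with the matched letters in capitals. All are RefSeq sequence on GRCm38.p6, written 5′ to 3′ on the strand of the gene. A match on the opposite strand appears as TTTC, 2 bases and TTTC.
Isg15 (chr4:156200860-156200911, minus strand): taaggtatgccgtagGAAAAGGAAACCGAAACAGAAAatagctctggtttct
Ifit1 (chr19:34640770-34640828, plus strand): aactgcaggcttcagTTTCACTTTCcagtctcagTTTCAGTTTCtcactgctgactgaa
Ifit3 (chr19:34583358-34583431, plus strand): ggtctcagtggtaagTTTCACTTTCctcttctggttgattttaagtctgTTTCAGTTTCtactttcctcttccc
Oas1a (chr5:120907526-120907560, minus strand): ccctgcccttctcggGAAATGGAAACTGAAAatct
Irgm1 (chr11:48871421-48871465, minus strand): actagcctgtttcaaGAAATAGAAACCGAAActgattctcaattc
Irgm2 (chr11:58214898-58214937, plus strand): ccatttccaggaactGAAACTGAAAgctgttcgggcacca
Gbp2 (chr3:142620589-142620628, plus strand): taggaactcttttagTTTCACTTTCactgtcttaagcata
Bst2 (chr8:71537572-71537617, minus strand): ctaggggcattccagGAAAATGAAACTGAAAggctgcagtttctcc
Rsad2 (chr12:26456548-26456587, minus strand): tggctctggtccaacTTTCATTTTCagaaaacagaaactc
Stat2 (chr10:128270261-128270300, plus strand): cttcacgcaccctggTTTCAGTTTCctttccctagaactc
The Isg15 stretch held 3 overlapping matches, Ifit1 and Ifit3 held 2 separate ones, and Oas1a, Irgm1 and Bst2 held 2 overlapping ones. The whole 250 bases before the Isg15 start (chr4:156200819-156201068, minus strand) are printed next, since this gene had the third highest fold change of all features between numbers 3 and 2.
Isg15: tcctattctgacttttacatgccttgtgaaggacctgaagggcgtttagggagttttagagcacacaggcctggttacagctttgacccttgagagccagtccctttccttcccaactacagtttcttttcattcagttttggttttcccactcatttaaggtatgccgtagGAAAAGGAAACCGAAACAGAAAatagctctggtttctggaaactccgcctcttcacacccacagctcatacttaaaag
Among the 39 matched genes, the 20 with a response element match had a median log2 fold change of 4.81 between numbers 3 and 1, with 16 called. The 19 without one had a median of 2.91, with 12 called. The 11 with a gamma-activated site match had a median of 2.79, with 7 called, and the 28 without one a median of 4.34, with 21 called. These counts include genes that passed the filter only through number 3. Of the other genes, 15 of 18 with a response element match and 11 of 18 without one were called. For the gamma-activated site, 6 of 10 with a match and 20 of 26 without one were called. Genes with no read in number 1 were also set to their bound of 3 reads per library. The median without a gamma-activated site match then became 4.25, and the other medians stayed the same. The difference between genes with and without a match was not tested.

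Several members lie next to each other, on GRCm38 as in the deposited table. Ifit2, Ifit3, Ifit3b and Ifit1 lie on chromosome 19 between 34550694 and 34650009, and Oas2, Oas3 and Oas1a on chromosome 5 between 120730333 and 120907521. Gbp7, Gbp3 and Gbp2 lie on chromosome 3 between 142530342 and 142638008, and Parp14, Dtx3l and Parp9 on chromosome 16 between 35832874 and 35972605. The coordinates of 48 of the 49 genes equal those of GENCODE M21, with Isg15 as the exception. In that annotation 20 of the 49 overlap another gene, among them Igtp and Irgm2 on the same strand and Parp9 and Dtx3l on opposite strands. No source used here says how the counting used strand, so reads of overlapping genes, and of the near copies Ifit3 and Ifit3b, cannot be assigned with certainty.

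The genes are described next by role, each first by its scaled reads in the libraries labelled Islr knockout 1, 2 and 3 and then in those labelled control 1, 2 and 3. Number 3 was called higher than number 1 for 3 of the 5 sensors of viral RNA and DNA, with a group median log2 fold change of 4.01. Ddx58, which encodes the RNA sensor RIG-I, stood at 63.9, 107.9 and 1124 scaled reads in the Islr knockout group and at 43.3, 50.1 and 666.5 in the control group. Zbp1, a sensor of Z-form nucleic acid, stood at 11.4, 5.54 and 464.5 against 6.67, 0 and 208.8. In both genes the libraries of number 3 stood clear of the other 4. Their log2 fold changes between numbers 3 and 1 were 4.01 ± 0.34 (SE, limma adjusted p = 0.00376) for Ddx58 and 5.00 ± 0.66 (limma adjusted p = 0.00989) for Zbp1. Trim25, the ubiquitin ligase that activates RIG-I, was plentiful everywhere, at 1200, 898.6 and 2664 scaled reads in the Islr knockout group and 792.1, 1142 and 1924 in the control group. Its log2 fold change of 1.21 ± 0.28 did not pass (limma adjusted p = 0.0605). Ifih1, which encodes the RNA sensor MDA5, passed at 4.23, and its regulator Dhx58 (3.13) did not.

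All 4 transcription factors were higher in number 3 than in number 1 and than in number 2. Stat2 stood at 297.8, 77.5 and 1021 scaled reads in the Islr knockout group and at 213.3, 86.2 and 660.5 in the control group. Irf9, its partner in the interferon-induced complex, stood at 130.1, 127.3 and 1013 against 153.3, 117.7 and 681.8. Both were clearly expressed in numbers 1 and 2, and their log2 fold changes between numbers 3 and 1 were 1.70 ± 0.32 (limma adjusted p = 0.0313) and 2.55 ± 0.32 (limma adjusted p = 0.00854). Irf7, which drives interferon genes, stood at 22.8, 24.9 and 1052 scaled reads in the Islr knockout group and 23.3, 9.32 and 424.4 in the control group, a log2 fold change of 4.80. Irf1, which also answers interferon gamma, passed at 1.85.

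Isg15, a ubiquitin-like protein that is attached to other proteins, and Usp18, the protease that removes it and dampens receptor signalling, were among the strongest. Isg15 stood at 9.13, 22.1 and 1604 scaled reads in the Islr knockout group and at 25.6, 1.17 and 1080 in the control group. Usp18 stood at 4.56, 4.61 and 688.0 against 2.22, 6.99 and 208.0. The log2 fold changes between numbers 3 and 1 were 6.33 ± 1.03 for Isg15 (limma adjusted p = 0.0347) and 6.49 ± 0.66 for Usp18 (limma adjusted p = 0.00574). Between numbers 3 and 2 they were 7.54 and 5.82. Herc6, the mouse ligase that joins Isg15 to its targets, stood at 27.4, 29.5 and 139.8 scaled reads in the Islr knockout group and at 21.1, 17.5 and 46.9 in the control group. Its highest libraries were also those of number 3, but it passed in neither contrast (limma adjusted p = 0.114 and 0.0886 against numbers 1 and 2).

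The IFIT family, which binds foreign RNA and blocks its translation, held genes that differed widely between numbers 3 and 1. Ifit1 stood at 12.5, 23.1 and 811.0 scaled reads in the Islr knockout group and at 6.67, 1.17 and 1168 in the control group, and was the one member of the family higher in control 3 than in Islr knockout 3. Ifit3b had no read in 3 libraries and stood at 0, 7.38 and 298.0 against 0, 0 and 226.7. Its level in number 3 was at least 77.7-fold higher than in number 1, taking 3 reads per library as the most that a count of 0 allows. Ifit2 was expressed in all libraries, at 387.9, 215.0 and 581.7 in the Islr knockout group and 266.6, 170.1 and 432.1 in the control group. The log2 fold change of Ifit2 was 0.64 ± 0.27 against number 1 (limma adjusted p = 0.217) and 1.39 ± 0.27 against number 2 (limma adjusted p = 0.0347). For Ifit1 it was 6.58 ± 0.85 (limma adjusted p = 0.0113) and 7.08 ± 0.85 (limma adjusted p = 0.0119).

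The OAS family is named for enzymes that make the second messenger of RNase L. Number 3 was called higher than number 1 for 3 of its 5 genes. Of these, Oas1a is among the 3 in the family that passed the filter only through number 3. The group median log2 fold change was 4.10 with the genes at 0 reads in number 1 set to their bound. Oasl2 stood at 3.42, 19.4 and 888.0 scaled reads in the Islr knockout group and at 7.78, 2.33 and 359.7 in the control group, a log2 fold change of 6.51 ± 0.80 (limma adjusted p = 0.00861). Oasl1, which represses translation of Irf7, stood at 28.5, 43.4 and 533.1 against 25.6, 2.33 and 429.6, a log2 fold change of 4.10 ± 0.84 (limma adjusted p = 0.0482). Both were high in the number 3 libraries alone. Oas2 and Oas3 had no read in the 4 libraries of numbers 1 and 2. Oas3 stood at 63.6 scaled reads in Islr knockout 3 and 5.97 in control 3, so that number 3 was at least 10.3-fold higher than number 1 by the same bound. For Oas2 the values were 32.6 and 7.67, at least 5.97-fold higher. Oas1a, at 205.1 in Islr knockout 3 and 23.01 in control 3, was at or under 2.77 in the other 4 libraries.

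Of the 9 other antiviral effectors, 6 were called higher in number 3 than in number 1. Of these, Mx1 passed the filter only through number 3. The group median log2 fold change was 3.74 as fitted and 2.91 with Mx1, which had no read in number 1, at its bound. Ifitm3, which blocks viral entry at membranes, had the highest mean of all 49 genes over the 6 libraries, at 880.8, 3177 and 11440.5 scaled reads in the Islr knockout group and 1345, 904.3 and 4961 in the control group. Islr knockout 2 lay between number 3 and the rest, and the log2 fold change of 2.79 ± 0.54 did not pass (limma adjusted p = 0.0521). Bst2, which tethers budding virus to the cell surface, stood at 130.1, 288.8 and 3496 against 187.8, 200.4 and 1259, a log2 fold change of 3.74 ± 0.43 (limma adjusted p = 0.00778). Eif2ak2, the RNA-activated kinase PKR, stood at 277.2, 208.5 and 1134 in the Islr knockout group and 202.2, 213.3 and 450.0 in the control group. It passed against number 2 (1.76, limma adjusted p = 0.0374) but not against number 1 (1.59, limma adjusted p = 0.0527). Samd9l, an antiviral and growth-restraining factor, stood at 74.2, 131.0 and 810.2 scaled reads in the Islr knockout group and 64.4, 55.9 and 340.9 in the control group. Its log2 fold change was 2.91 ± 0.39 (limma adjusted p = 0.00985). The RNA exonuclease Isg20 stood at 44.5, 54.4 and 153.2 against 51.1, 60.6 and 124.4, and passed in neither contrast. Rsad2, which encodes viperin, and its neighbour Cmpk2 passed in both, at 5.83 and 4.70 against number 1. Mx1 had no read in numbers 1 and 2 and stood at 24.3 in Islr knockout 3 and 22.2 in control 3, and Mx2 is annotated as a polymorphic pseudogene.

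Interferon-inducible GTPases act against intracellular pathogens in vacuoles, and 7 of these 8 were called higher in number 3 than in number 1 (group median log2 fold change 5.01). Iigp1, among the 7 called, passed the filter only through number 3, and 6 of the other 7 genes were called. Irgm1, a regulator of the family, stood at 86.7, 143.0 and 1490 scaled reads in the Islr knockout group and at 84.4, 68.8 and 721.0 in the control group. For Irgm2 the values were 29.7, 25.8 and 719.0 against 8.89, 5.83 and 508.8. Their log2 fold changes between numbers 3 and 1 were 3.58 ± 0.36 and 5.12 ± 0.51 (limma adjusted p = 0.00574 for each). Iigp1, an effector GTPase, was at 298.8 scaled reads in Islr knockout 3 and 223.3 in control 3, with no read in the other 4 libraries. By the bound of 3 reads per library, number 3 was at least 77.3-fold higher than number 1 and at least 83.4-fold higher than number 2. Gbp3, a guanylate-binding protein, stood at 5.70, 5.54 and 387.5 in the Islr knockout group and at 3.33, 2.33 and 209.7 in the control group, with a log2 fold change of 5.73 ± 0.57 (limma adjusted p = 0.00574). Ifi47 did not pass against either number.

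All 4 genes of the PARP group, whose proteins attach or read ADP-ribose, passed in both contrasts. Parp12 stood at 123.2, 154.1 and 853.7 scaled reads in the Islr knockout group and at 116.7, 88.6 and 412.5 in the control group. Parp9, the partner of the ubiquitin ligase Dtx3l, stood at 25.1, 67.3 and 657.0 against 34.4, 36.1 and 477.3. Parp14 stood at 31.9, 36.0 and 716.4 in the Islr knockout group and 13.3, 11.7 and 295.7 in the control group. The log2 fold changes between numbers 3 and 1 were 2.30 ± 0.35 for Parp12 (limma adjusted p = 0.0167), 4.21 ± 0.44 for Parp9 and 4.41 ± 0.42 for Parp14 (limma adjusted p = 0.00574 for both). Parp12 differed least and was the most abundant of the 4 per length in number 1, at 1.98 FPKM.

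Of the remaining 7 genes, 4 were called higher in number 3 than in number 1. Ifi44, among the 4 called, passed the filter only through number 3, and 3 of the other 6 genes were called. Lgals3bp, a secreted glycoprotein, stood at 39.9, 139.3 and 3043 scaled reads in the Islr knockout group and at 47.8, 42.0 and 935.8 in the control group. Rtp4, a chaperone of receptors, stood at 38.8, 48.0 and 698.0 against 55.6, 68.8 and 283.0. Ifi44 had at most 1.17 scaled reads in numbers 1 and 2, and stood at 416.8 in Islr knockout 3 and 86.9 in control 3. The log2 fold changes against number 1 were 5.24 ± 0.50 for Lgals3bp (limma adjusted p = 0.00574) and 3.23 ± 0.50 for Rtp4 (limma adjusted p = 0.0188). Ifi44 gave 600 reads in number 3 and 1 read in number 1, a ratio of 450.1 with a 95% exact interval from 80.5 to 17809 for counting error only. Epsti1 was low throughout, at 2.28, 0.92 and 17.6 scaled reads in the Islr knockout group and 5.56, 12.8 and 7.67 in the control group. Control 2 lay above control 3, and the log2 fold change of 1.45 ± 0.98 did not pass (limma adjusted p = 0.416) and was -0.06 without Islr knockout 3.

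**Figure D3:**
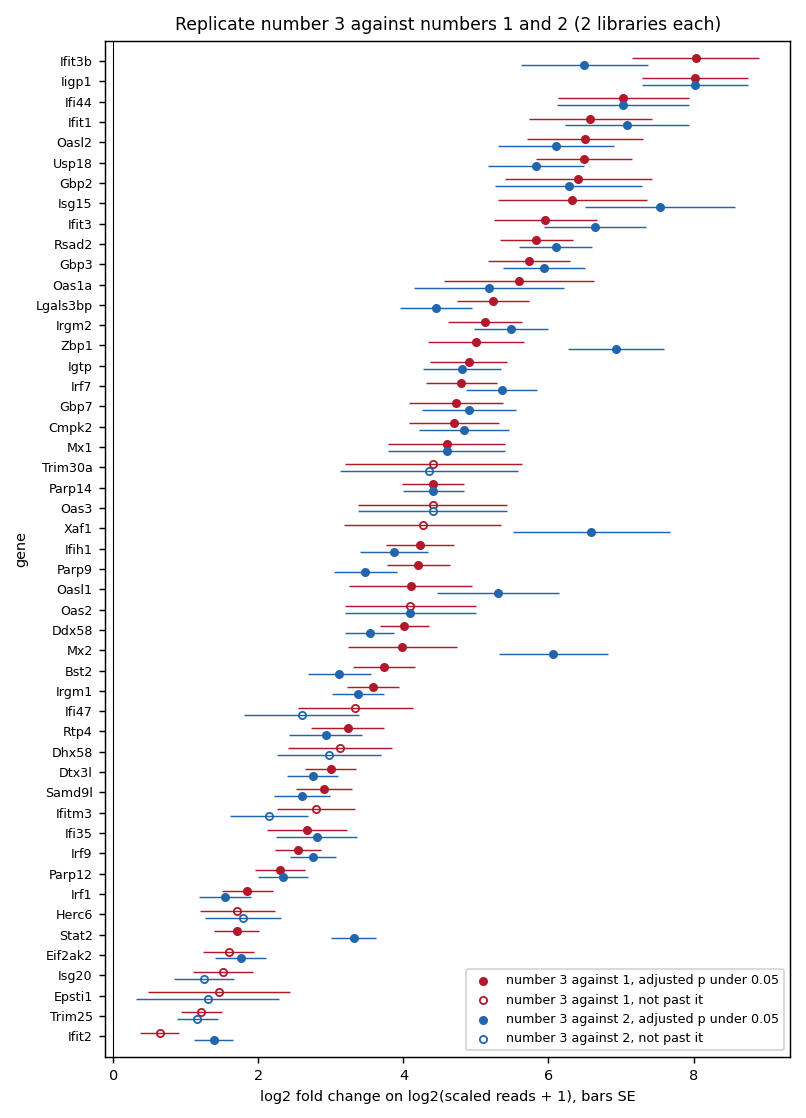
Log2 fold change (x axis, on log2(scaled reads + 1), bars SE) of each of the 49 genes for replicate number 3 against number 1 (red) and against number 2 (blue); filled points have a limma adjusted p under 0.05. All points lie above 0, from 0.64 for Ifit2 against number 1 to a fitted 8.03 for Ifit3b, which had no read in number 1, and 36 red and 40 blue points are filled.

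Levels can be compared between genes per unit of length. Ifitm3 stood at 1002 FPKM in Islr knockout 3 and 418.2 in control 3, Bst2 at 262.1 and 90.8, Isg15 at 135.4 and 87.8, and Lgals3bp at 77.5 and 22.95. These 4 genes were the highest in Islr knockout 3. In control 3, Bst2 and Isg15 differed little and Ifit1 (25.1) lay above Lgals3bp. Mx1 (0.426 and 0.374 FPKM) and Oas2 (0.489 and 0.111) were near the low end in both.

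Other genes of the pathway were compared between the same numbers. Of 9 receptor and proximal kinase genes, 1 was called higher in number 3 than in number 1. Ifngr2, a chain of the interferon gamma receptor, passed against number 1 alone (1.57, limma adjusted p = 0.0217), and stood at 368.5, 676.3 and 1174 scaled reads in Islr knockout 1, 2 and 3 and at 328.9, 414.9 and 910.2 in control 1, 2 and 3. The type I receptor chain Ifnar1 stood at 985.7, 1251 and 1238 in the Islr knockout group and 929.9, 1412 and 1123 in the control group, lowest in number 1 and highest in number 2 in both groups, and did not pass between numbers 3 and 1 (0.30, limma adjusted p = 0.479). Among 14 sensing adaptors and kinases with values, Tmem173 (1.58), which encodes STING, Tlr9 (4.02) and Ikbke (2.61) were called higher in number 3 than in number 1. Ikbke also passed against number 2 (2.30). Irf5 was higher in number 2 than in number 1 (2.68, limma adjusted p = 0.0454). Of 8 negative regulators with values, Socs3 (1.92) passed against number 1.

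Interferon transcripts themselves were at or near the counting limit. Of 21 interferon genes on the list, 5 had values in the table, and Ifnz alone had a mean of at least 1, at 0, 3.69 and 3.35 scaled reads in the Islr knockout group and 2.22, 3.496 and 4.26 in the control group. Ifnb1 had 0.84 scaled reads in Islr knockout 3 and 0 in the other 5 libraries. Ifng was not among the genes with values. At this depth no difference in ligand was detectable between numbers.

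Markers of other cell types are given beside these contrasts. In bulk libraries, a change in the share of a cell type and a change of RNA per cell cannot be told apart. The summed level of 18 macrophage and myeloid markers was 306, 1285 and 1654 scaled reads in Islr knockout 1, 2 and 3, and 472, 831 and 777 in control 1, 2 and 3. Laptm5 gave 119, 479 and 289 of these in the Islr knockout group and 141, 538 and 266 in the control group. The other 17 markers summed to 187, 806 and 1365 in the Islr knockout group and 331, 293 and 511 in the control group. Without Laptm5 the sum was thus highest in number 3 in both groups. Both libraries of number 3 lay above the other 4 for 5 of the 18 markers, and for 15.8% of the features tested. All of the 18 but Fcgr1 were tested, Laptm5 included. None of these 17 tested markers was called between numbers 3 and 1, though all 17 were above 0 (limma log2 fold changes of 0.88 to 2.87). Between numbers 3 and 2, none was called higher and 13 of 17 were above 0, with a median log2 fold change of 0.93. The pan-leukocyte gene Ptprc stood at 1.14, 0 and 10.04 in the Islr knockout group and was 0 in all control libraries. Of 13 lymphocyte and NK markers, 7 had values and summed to 12.5, 7.38 and 11.7 in the Islr knockout group and 6.67, 3.496 and 9.38 in the control group. Of 7 plasmacytoid dendritic cell markers, 5 had values, which summed to 3074, 1440 and 1598 in the Islr knockout group and 2086, 1481 and 2917 in the control group. Nearly all of this was Tcf4 and Cox6a2, which muscle cells also express, and Spib, Ly6d and Ccr9 were at 0 in 3 or more libraries each.

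The 10 endothelial markers summed to 447, 1785 and 1630 scaled reads in the Islr knockout group and 459, 764 and 648 in the control group, so number 2 exceeded number 3 in both groups. Pecam1 and Emcn were called between numbers 3 and 1 and also between numbers 2 and 1. The 12 markers of fibro-adipogenic progenitors and fibroblasts summed to 9880, 14725 and 18500 in the Islr knockout group and to 11122, 6493 and 17409 in the control group. This sum was highest in number 3 in both groups. For 4 of the 12 markers, both libraries of number 3 lay above the other 4, as for 15.8% of the features tested. Ly6a among them was called in number 3 against number 1 (3.98) and number 2 (3.55), and this gene is itself known to respond to interferon. The 11 markers of differentiating myocytes summed to 412835, 13718 and 46123 in the Islr knockout group and to 430365, 3249 and 216013 in the control group. The 8 Schwann cell and glia markers summed to 3149, 1922 and 1960 against 2391, 782 and 1471, and the 10 satellite cell and myoblast markers to 136207, 63819 and 69344 against 142493, 77344 and 102038. The fitted log2 fold change of the 11 myocyte markers ran from -3.04 to -0.50 between numbers 3 and 1. Between numbers 3 and 2 it ran from 0.92 to 6.77. Single libraries did not all follow this order, as Mymx (2276 against 1062 scaled reads) and Ckm (1076 against 571) were higher in control 3 than in control 1. The part of any of these cell types in the result was not tested.

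The genotype comparison asked whether the interferon-stimulated genes differ by the Islr label of the library. No member passed the adjusted threshold in limma without a replicate block, where 0% of all features were called, and none had an unadjusted p under 0.05 (1.15% of features higher and 0.211% lower). No member had all 3 Islr knockout libraries above all 3 control libraries, which 2.65% of features did, and none had them all below (2.11%). Neither order was possible for the 48 genes whose number 3 libraries both lay above the other 4, so these counts say nothing about genotype. The median log2 fold change over the 49 genes was 0.67, against 0.03 over all features, and 44 of 49 were above 0, as were 53% of all features. None of the cell type markers was called in this comparison. The log2 fold change was above 0 for 10 of 10 endothelial markers (median 0.83), 11 of 12 of fibro-adipogenic progenitors and fibroblasts (0.90), 7 of 8 of Schwann cells and glia (0.94) and 13 of 17 of macrophages and myeloid cells (0.68). It was above 0 for 3 of 10 satellite cell and myoblast markers (-0.18) and 4 of 11 of differentiating myocytes (-0.03). The part of these cells in the genotype difference was not tested. The member median turned to -0.89 without Islr knockout 3 and to -0.19 without control 2, and was 1.51, 1.23, 0.17 and 1.78 without Islr knockout 1, Islr knockout 2, control 1 and control 3. Leaving out both libraries of a number instead kept it between 0.40 and 0.98.

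With the replicate number as a block, again no gene passed, and 8 of the 49 had an unadjusted p under 0.05, all higher, where 3.66% of features were higher at that level. These were Parp14, Irgm2, Ddx58, Samd9l, Zbp1, Lgals3bp, Ifih1 and Irgm1. With the block, 14 had an unadjusted p under 0.05 in edgeR, where 4.12% of features did, and 14 in DESeq2 (3.5%), and none passed the adjusted threshold in either. Parp14 averaged 261 ± 394 scaled reads in the Islr knockout group and 107 ± 164 in the control group (SD, n = 3 each). Its log2 fold change was 1.34 ± 1.70 (SE) without the block and 1.34 ± 0.35 with it (limma adjusted p = 1.0 and 0.920). Herc6 averaged 65.6 ± 64.3 against 28.5 ± 16.03 scaled reads, and its log2 fold change of 0.88 had a 95% interval from -0.79 to 2.55 without the block. For Ifit2, at 395 ± 183 against 290 ± 132, the fold change was 0.43 with an interval from -0.61 to 1.48. Eif2ak2 averaged 540 ± 516 against 288 ± 140, and Samd9l 338 ± 410 against 154 ± 162. In each of these 4 genes the largest value of both groups was that of number 3. Epsti1 averaged 6.93 ± 9.25 against 8.68 ± 3.74, with a log2 fold change of -0.91 and an interval from -3.01 to 1.18.

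Within a replicate number there is 1 library per genotype and so no test. In number 3, 47 of the 49 genes were higher in Islr knockout 3 than in control 3, where 50.7% of features were, and the exceptions were Ifit1 and Irf1. The median log2 difference was 0.87, against 0.01 over all features, and 22 genes were at least 2-fold higher (13.7% of features) and none at least 2-fold lower (10.5%). In number 2 the median was 0.88, with 33 genes higher and 11 lower (48.1% of features were higher). At least 2-fold, 23 were higher (15.4%) and 2 lower (8.12%). In number 1 the median was 0, with 20 genes higher and 24 lower (52.1% of features were higher). Here 3 were at least 2-fold higher (11.3%) and 9 at least 2-fold lower (8.08%).

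**Figure D4:**
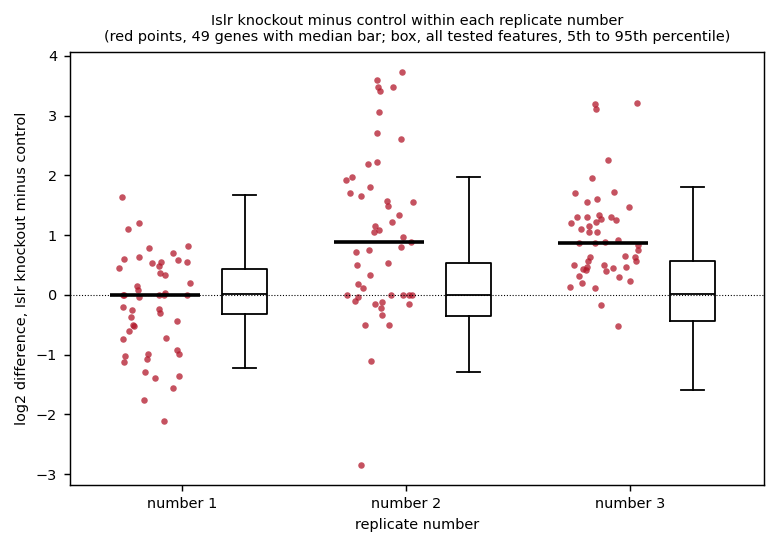
Log2 difference (y axis, log2(scaled reads + 1)) of the Islr knockout library minus the control library within each replicate number; red points are the 49 genes with their median as a bar, and boxes are all tested features with whiskers at the 5th and 95th percentiles. The medians are 0, 0.88 and 0.87 for numbers 1, 2 and 3, and 2 of the 49 points lie below 0 in number 3.

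The reads behind these differences were few outside number 3. The 49 genes together gave 3732 reads in Islr knockout 1 and 3777 in control 1, 7113 in Islr knockout 2 and 3116 in control 2, and 54059 in Islr knockout 3 and 27696 in control 3. Of the 7113 in Islr knockout 2, Ifitm3 gave 3444, against 776 of the 3116 in control 2. The 95% exact interval of the ratio, for counting error only, lay above 1 for 44 genes and below 1 for 1 in number 3. In number 2 it lay above 1 for 22 and below for 2, and held 1 for 20. In number 1 it lay above 1 for 6 and below for 7, and held 1 for 31. In each of numbers 1 and 2, 5 genes had no read in either library.

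The genes did not share 1 ratio between the libraries of number 3. Oas3 was 10.7-fold higher in Islr knockout 3 than in control 3 (76 and 7 reads, interval 4.93 to 27.4), Trim30a 9.76-fold (159 and 16 reads, 5.83 to 17.5) and Oas1a 8.91-fold (245 and 27 reads, 5.98 to 13.8). Usp18 was 3.31-fold higher (822 and 244 reads, 2.86 to 3.83) and Lgals3bp 3.25-fold (3636 and 1098 reads, 3.04 to 3.48). Isg15 was 1.49-fold higher (1916 and 1267 reads, 1.38 to 1.60), and Rsad2 1.15-fold (677 and 580 reads, 1.02 to 1.28). Ifit1 was lower in Islr knockout 3, at 0.695-fold (969 and 1370 reads, 0.639 to 0.755). The intervals of Usp18, Isg15 and Ifit1 do not overlap each other, though all cover counting error alone and not the spread between cultures.

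**Figure D5:**
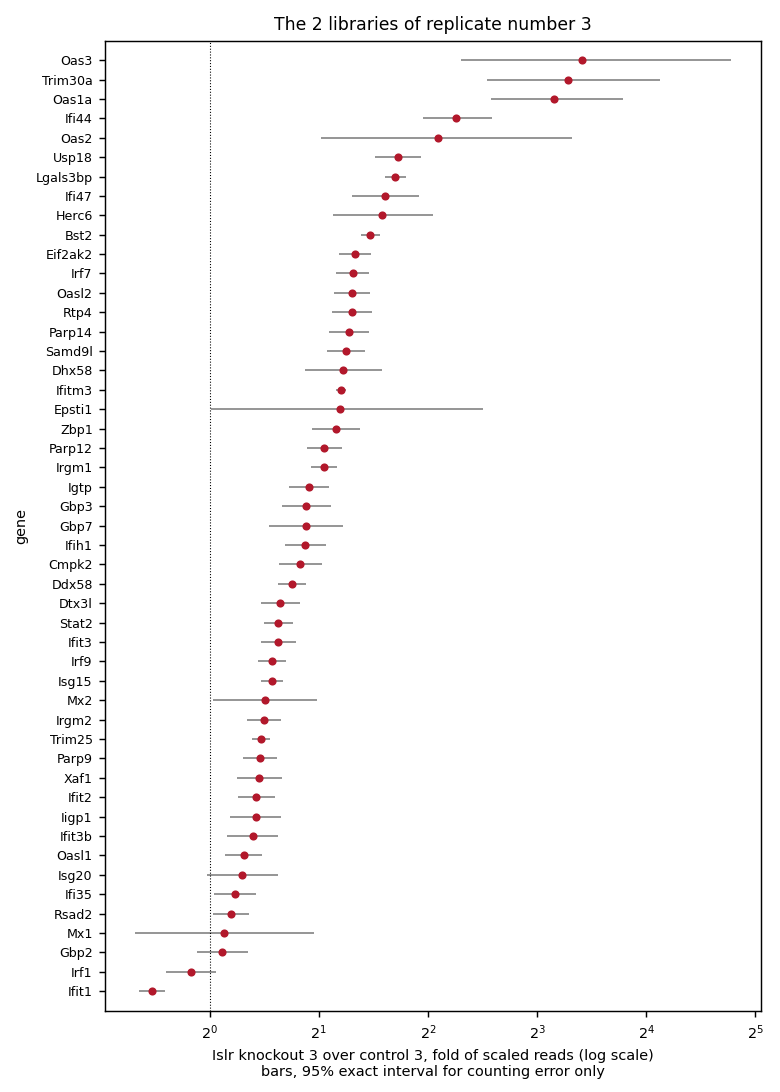
Ratio of scaled reads in the library labelled Islr knockout 3 over that labelled control 3 for each of the 49 genes (log axis; bars, 95% exact interval for counting error only). The ratios run from 10.7 for Oas3 down to 0.695 for Ifit1, and 44 intervals lie above 1.

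Across all 3 numbers, 13 of the 49 genes were higher in the Islr knockout library each time, where 12.2% of features were, and none was lower each time (12.1%). By at least 0.5 on the log2 scale in each number, 4 genes were higher (2.69% of features): Ddx58, Zbp1, Gbp3 and Parp14. The differences of Parp14 in numbers 1, 2 and 3 were 1.20, 1.55 and 1.27, from 28 and 12 reads, 39 and 10 reads, and 856 and 347 reads. For Ddx58 they were 0.55, 1.09 and 0.75, and for Gbp3 0.63, 0.97 and 0.88. For Zbp1 they were 0.69, 2.71 and 1.15, of which the second rests on 6 reads against none.

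The authors' deposited table also holds their own fold change and p-value per gene. It gives no p for 83 of its 27366 features (0.303%), and 29 of these 83 are interferon-stimulated genes, which is 59.2% of the 49. A rerun of DESeq2 on the recovered reads, which withholds p where its test for outlying counts finds 1 library too influential, withheld it for the same 83 features. In the authors' deposited table the log2 fold change, which has the sign of Islr knockout over control, was above 0 for 46 of the 49 genes and at least 1 for 16. Among the members with a p there, the smallest p was 0.117 and the smallest adjusted p was 1.0. With that test switched off, DESeq2 without a replicate block called none of the 49, and none had an unadjusted p under 0.05.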

How the data were processed

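The authors deposited 1 table of scaled reads per gene, a signal scale in which each library's gene counts were divided by its size factor, with FPKM values and the log2 fold change and p-values of their own comparison, per the file headers. The submitters' processing notes name HTSeq, HISAT2 2.0.5, edgeR 3.18.1, DESeq2 1.16.1 and Trimmomatic. No source used here gives strand handling or the annotation. From each column's lowest value, 100.0% of values came out as whole reads within 0.01, and 480 of 480 features shared with the authors' deposited raw count table had equal counts. Damaged lines (36) were dropped, and the 6 FPKM columns of the raw count table were left out. The column of control 1 carries a name in which 2 digits are exchanged against its label.

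Tests used limma 3.58.1 (trend, robust; R 4.3.3), two-sided, on log2(scaled reads + 1). The number contrasts had replicate number and genotype in the model, and genotype was fitted without a block. Deviations from group means of same-numbered libraries correlated at 0.689, 0.633 and 0.625 over 14280 features (differently numbered, -0.513 to -0.245), so the numbers were taken to pair the libraries, from the data and not from the labels. Alternatives used edgeR 4.0.16, DESeq2 1.42.0 and limma-voom on the recovered reads, other scalings, pseudocounts and filters, and left out libraries. The fits were tested on simulated data. For the genotype fit, these held no difference between replicate numbers, unlike the libraries here, so they do not show what that fit can find in these genes. Read depth limits low genes, and intervals and bounds cover counting error only, since reads without molecular identifiers are not independent molecules. The members, gene lists and tests were chosen with earlier results of these data known. Values in every library are printed for the 2 most abundant genes of each role group, the 6 largest and 4 smallest fold changes between numbers 3 and 1, the 5 smallest genotype p-values, and genes moving by 0.5 one way in all 3 numbers; others were named after their values were seen. One gene of the pathway lists is not reported here.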

Additional observations from a re-analysis of the deposited data

Results flagged for a closer look

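For 11 of the 49 genes the Islr knockout minus control difference was at least 1 (log2) in 1 direction in one replicate number and at least 1 in the other direction in another. With 1 pair of libraries per number, the difference between numbers was not tested. The lowest and highest values were -1.76 and 1.21 for Dhx58, -1.39 and 3.42 for Isg15, and -1.37 and 1.48 for Ifit3. They were -1.08 and 3.10 for Oas1a, -1.13 and 1.15 for Cmpk2, -1.30 and 2.18 for Ifi47, and -1.02 and 3.48 for Gbp2. For Xaf1 they were -1.56 and 3.59, for Ifi44 -1.11 and 2.25, for Epsti1 -2.85 and 1.10, and for Trim30a -2.12 and 3.20. Read counts were low outside number 3: Isg15 had 8 reads in Islr knockout 1 and 23 in control 1, and 24 in Islr knockout 2 and 1 in control 2. In numbers 1 and 2, 19 and 18 of the 49 genes had fewer than 20 reads in the pair.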

How the results depend on the processing

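No member passed in the genotype comparison under any of 25 alternatives, the replicate block in limma, edgeR and DESeq2 included; with DESeq2 and the block, 7 of all features passed and none was a member. The median of 0.67 ran from 0.60 to 0.77 over other scalings, pseudocounts, filters and tools, and from -0.89 to 1.78 with 1 library or number left out. Members called between numbers 3 and 1 (36) ran from 25 to 43 over the settings that kept all libraries and from 0 to 39 with 1 left out. Between numbers 3 and 2 (40) they ran from 26, with a pseudocount of 0.1, to 45, and from 0 to 40. Between numbers 2 and 1 (1) the count was 1 in every setting with all libraries and 0 to 2 otherwise. With both libraries of number 3 left out, 43 members passed the filter on low values, and with a mean of at least 10 scaled reads 46 did. The features called in all ran from 206 to 1859 (588 as reported), 112 to 2174 (855) and 470 to 1371 (658) in the contrasts of numbers 3 and 1, 3 and 2, and 2 and 1 with all libraries. Scaling by library size alone moved the median of all features between numbers 3 and 2 to 0.21, against 0.08; member medians there were 4.49 and 4.41. Genotype log2 fold changes that changed sign with 1 library left out ran from -0.16 to 1.06 (Eif2ak2), -0.12 to 1.72 (Samd9l), -0.45 to 2.07 (Ddx58), -0.38 to 3.599 (Zbp1), -1.13 to 2.76 (Gbp3), -0.11 to 2.83 (Parp14) and -0.18 to 3.35 (Irgm2), each lowest without Islr knockout 3. That of Epsti1 turned to 0.051 without number 2. Between numbers 3 and 1, Epsti1 ran from -0.058 to 2.96. The cause was not tested. DESeq2 without its outlier rule, with and without a replicate block, was chosen after seeing the data.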
